A study of Fragaria x ananassa with 6 samples.

Results

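The genes described here are 4 defence-related genes of the strawberry (Fragaria x ananassa) receptacle: the beta-1,3-glucanase genes gene26607 and gene20426, the PR-4 gene gene30565 and the thaumatin-like gene gene09812. They were picked by their identifiers from the 35116 gene names on the array, and all 4 were among the 21101 genes that were bright enough to test. The study had itself selected these genes on the same samples. The glucanases were selected for a higher and PR-4 and thaumatin for a lower transcript level after silencing. The selection used the size of the change and its p value, so direction, size and p values here are a description and no independent evidence. The descriptions are the study's annotations, and positions in a genome were not used here. The study's text calls gene26607 and gene20426 beta-glucosidases, potentially of cellulose degradation, and places them among genes of cell wall metabolism and growth. Their grouping here as defence-related rests on the annotated family and not on that text.

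Fruits still attached to plants of cultivar Elsanta were injected with Agrobacterium carrying the construct pFRN-FaPRE1, which directs RNA interference against FaPRE1, or the empty pFRN vector as the control. Both groups were thus injected with the bacterium, and no uninjected fruit was among the samples. The control levels of the defence-related genes are therefore those of injected fruit. FaPRE1 encodes an atypical HLH protein, a regulator that cannot bind DNA itself because it lacks the basic domain of bHLH proteins. There were 3 RNAi and 3 control samples, each from an independent pool of ripening receptacles freed of achenes (the true fruits that carry the seeds), and silencing was transient, so that every RNAi pool may hold cells that the construct did not reach. Each of the 3 two-colour arrays held the RNAi and the control sample of 1 replicate number, and RNAi carried Cy3 in replicates 1 and 3 and Cy5 in replicate 2. A characteristic in the labels describes the RNAi samples as overexpressing, and the extraction text speaks of floral buds, whereas titles, sources and the methods describe RNAi and fruits, which was followed.

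Plants keep a set of pathogenesis-related (PR) proteins that accumulate on infection or wounding, many of which are also made in ripening fruit. Beta-1,3-glucanases, the PR-2 family, cut beta-1,3-glucans, found in fungal cell walls and in callose, the glucan that plants lay down at plasmodesmata, in pollen and at wounds. Some members of this large family serve growth and cell-to-cell transport and not defence. PR-4 proteins are small secreted proteins that act on fungi, several of them through chitin binding or nuclease activity. Thaumatin-like proteins form the PR-5 family, secreted or vacuolar proteins named after the sweet protein of a West African fruit, several of which damage fungal membranes and some of which accumulate in ripening fruits such as grape, cherry and apple.

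The 4 genes moved in opposite directions. Relative to the bulk of genes on the same array, gene26607 was 8.72-fold and gene20426 3.67-fold higher in RNAi than in control receptacles, whereas PR-4 was 7.21-fold and the thaumatin-like gene 4.35-fold lower. Each gene kept its direction on 3 of 3 arrays and each passed the test (limma, Benjamini-Hochberg adjustment over all genes tested, adjusted p under 0.05). Such calls were common on these arrays: 34.8% of all tested genes were called, 16.9% higher and 17.9% lower in RNAi. The count of 4 called genes among 4 therefore says little by itself. The sizes of the ratios are given as a description, since the study's selection had used size as well.

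**Figure D1:**
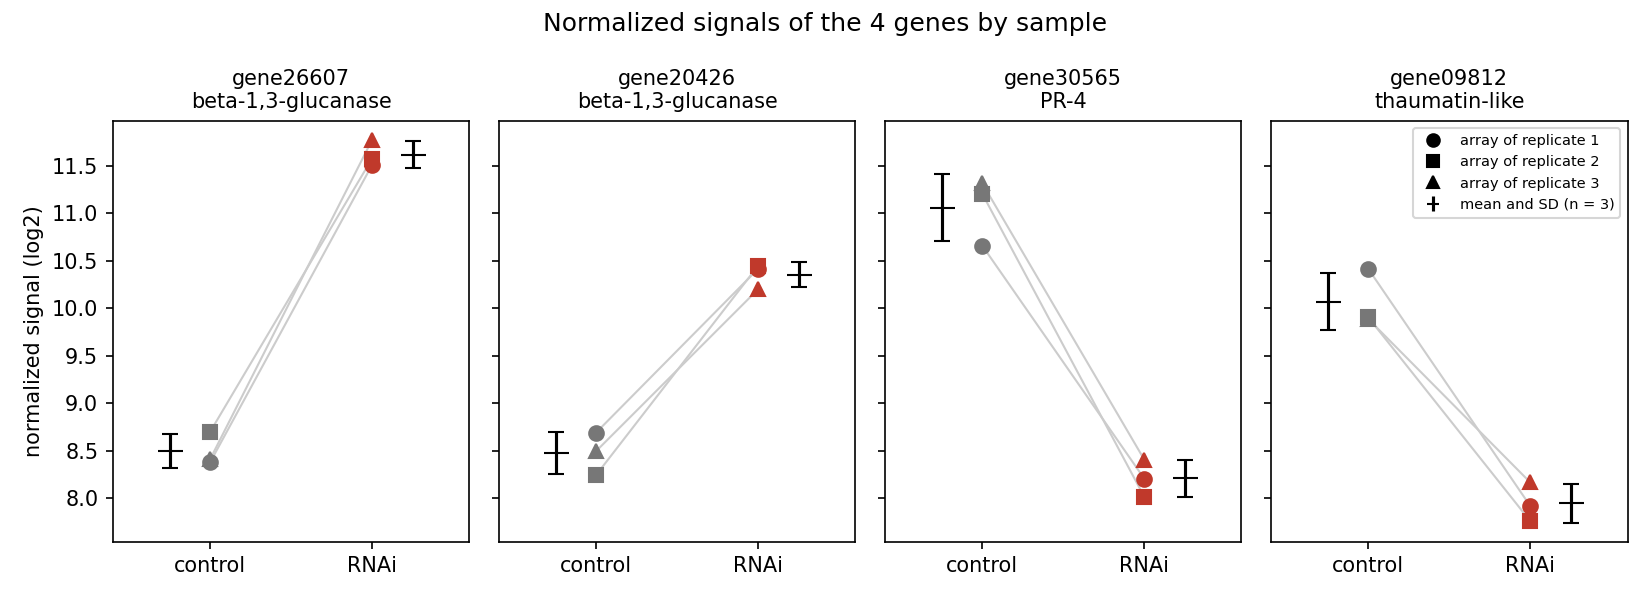
Normalized signal of each of the 4 genes (log2) in the 3 control (grey) and 3 RNAi (red) samples, with a line joining the samples of an array and, beside them, the mean and SD of each group (n = 3). The RNAi samples lay above all control samples for gene26607 and gene20426 and below all of them for gene30565 and gene09812.

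gene26607, described as a glucan endo-1,3-beta-glucosidase-like protein, had normalized log2 signals of 8.38, 8.70 and 8.41 in control samples 1, 2 and 3. In RNAi samples 1, 2 and 3 they were 11.51, 11.57 and 11.77. The 3 RNAi samples lay within a narrow range far above every control sample, so that the groups did not overlap, which also held, with RNAi higher, for 24.7% of all tested genes. The control mean was 8.49 ± 0.177 (SD, n = 3) and the RNAi mean 11.62 ± 0.137 (SD, n = 3). The log2 ratios of RNAi over control were 3.13, 2.88 and 3.36 on the arrays of replicates 1, 2 and 3, with a mean of 3.12 (SE 0.134, 95% interval 2.79 to 3.46, limma adjusted p = 0.000311). Only 39 of the 21101 tested genes had a higher mean log2 ratio. Its probe was printed on 2 spots, whose log2 ratios differed by 0.303 at most on an array, far less than the change itself.

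gene20426, described as glucan endo-1,3-beta-glucosidase 7, gave the smallest change of the 4 genes. Control samples 1, 2 and 3 had normalized log2 signals of 8.69, 8.24 and 8.49, and RNAi samples 1, 2 and 3 had 10.41, 10.45 and 10.20. Every RNAi sample was again above every control sample. The group means were 8.48 ± 0.224 (SD, n = 3) and 10.35 ± 0.135 (SD, n = 3). The log2 ratios were 1.72, 2.20 and 1.70 on the 3 arrays, with a mean of 1.88 (SE 0.143, 95% interval 1.52 to 2.23, limma adjusted p = 0.00104), and 347 tested genes had a higher one. The 2 spots of its probe differed by 0.069 at most.

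The response of gene26607 exceeded that of gene20426 on every array. The difference between their log2 ratios was 1.41, 0.68 and 1.66 on the arrays of replicates 1, 2 and 3, with a mean of 1.25 (SD 0.511, n = 3). A 2-sided exact permutation test by sign flips over the arrays gave p = 0.25, the smallest p that 3 arrays allow.

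gene30565, the PR-4 gene, showed the largest fall of the 4. Control samples 1, 2 and 3 had normalized log2 signals of 10.66, 11.20 and 11.31, whereas RNAi samples 1, 2 and 3 had 8.20, 8.01 and 8.41. Control replicate 1 was the lowest control sample, and it still lay well above every RNAi sample. Such a separation with RNAi lower was seen for 26% of all tested genes, and a separation in either direction for 50.7%. The group means were 11.06 ± 0.352 (SD, n = 3) and 8.21 ± 0.196 (SD, n = 3). The log2 ratios were -2.45, -3.19 and -2.91, with a mean of -2.85 (SE 0.165, 95% interval -3.26 to -2.44, limma adjusted p = 0.000499), and 41 tested genes had a lower one. This probe was printed on 1 spot, so its ratio has no second spot to compare with.

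gene09812, described as a thaumatin precursor, had normalized log2 signals of 10.41, 9.90 and 9.88 in control samples 1, 2 and 3. They were 7.92, 7.76 and 8.16 in RNAi samples 1, 2 and 3. Control replicate 1 was here the highest sample, and the groups stayed apart. The group means were 10.07 ± 0.300 (SD, n = 3) and 7.95 ± 0.206 (SD, n = 3). The log2 ratios were -2.50, -2.15 and -1.72, with a mean of -2.12 (SE 0.169, 95% interval -2.54 to -1.70, limma adjusted p = 0.00116), and 116 tested genes had a lower one. The 2 spots of its probe differed by 0.194 at most.

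The falls of PR-4 and the thaumatin-like gene were also compared array by array. On the array of replicate 1 their log2 ratios differed by 0.04, whereas on those of replicates 2 and 3 the ratio of PR-4 minus that of thaumatin was -1.04 and -1.19. The mean difference was -0.73 (SD 0.674, n = 3), with a sign that was not the same on all 3 arrays. A 2-sided exact permutation test by sign flips gave p = 0.5, where 3 arrays allow no p under 0.25.

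**Figure D2:**
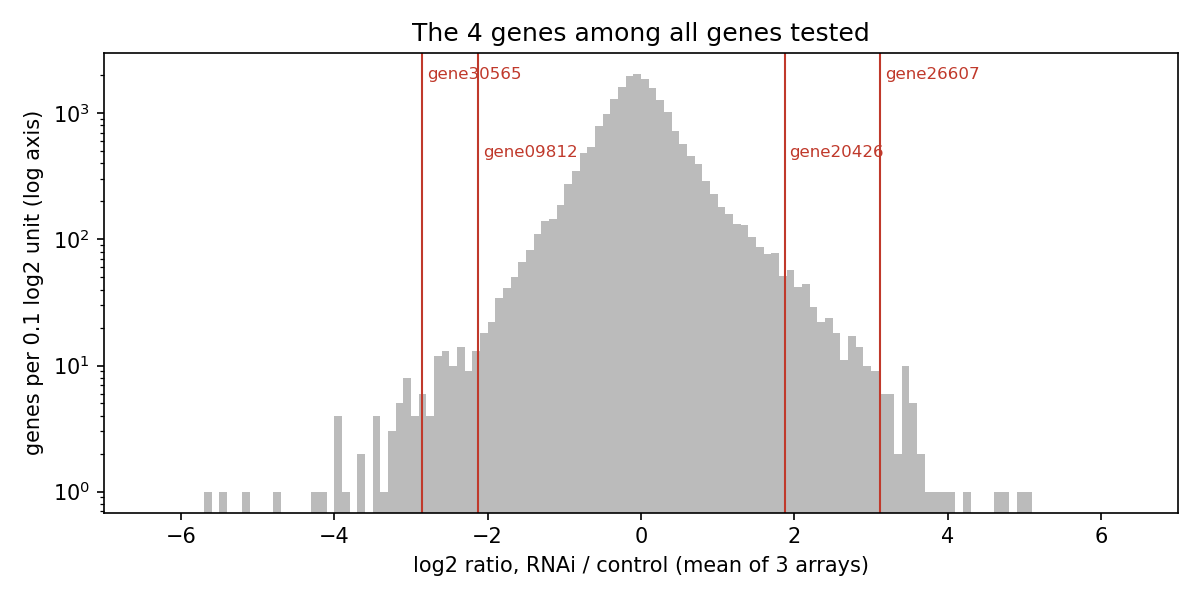
Distribution of the mean log2 ratio (RNAi over control, 3 arrays) of the 21101 tested genes, with a log axis for the number of genes per bin and red lines at the 4 genes. The median gene lay at -0.04, gene26607 and gene30565 lay far out in the upper and lower tails with 39 and 41 genes beyond them, and gene20426 lay further in with 347.

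The scanner signals before any normalization show how bright these probes were. All spots of the 4 probes were well above background in all 6 samples, and none was saturated. For PR-4 the spot signal minus local background was 3521, 2577.5 and 9100 in control samples 1, 2 and 3 but 77, 141.5 and 54 in RNAi samples 1, 2 and 3. For the thaumatin-like gene it was 2909.75, 971.5 and 3162 in the controls against 56, 106.5 and 45.75 in the RNAi samples. Both RNAi groups were thus near the dim end of the scale, where the PR-4 spot reached only 2.54 to 3.02 times and the thaumatin spots 2.27 to 2.60 times their local background. The background correction adds an offset of 50 to every signal, which shrinks the ratios of dim spots. Without it, an alternative added after the data were seen, the log2 ratios were -3.30 for PR-4 and -2.62 for thaumatin.

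The unnormalized signals of the glucanases looked different from the normalized ones. gene26607 gave 691.5, 412.5 and 1161.25 in the controls, again in the order of the replicates, against 1191.75, 2446.25 and 1042.25 in the RNAi samples. gene20426 gave 861, 274.75 and 1194.5 in the controls and 539.75, 1053.25 and 337.25 in the RNAi samples. These signals mix dyes and arrays, and for both glucanase genes they overlapped between the groups.

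A common scale came from the spike-in probes, control RNAs from outside the plant that are added in known amounts. Spots well above background made up 44.1% to 60.4% of gene spots in RNAi and 60.7% to 72.7% in control samples. Within each dye, the median gene signal relative to the spike-ins was lower in RNAi than in control samples, by 2.10 log2 units in Cy3 and 2.09 in Cy5. Each of these differences set 1 sample against the mean of 2 from other arrays. The 2 controls in Cy5 themselves lay at -4.20 and -3.19. What lay behind this shift, in the tissue or in the handling of RNA and arrays, was not tested. For a single gene in such pooled tissue, fewer cells of a type and less of its RNA per cell cannot be told apart. Values against the spike-ins are given without a test and come in 2 forms. Values by sample and by dye are the background-subtracted log2 signal minus the mean log2 spike-in signal of that sample. Single values for a gene or list further below add the mean shift of -2.09 to the normalized log2 ratio. In that form the shift enters as 1 constant of unknown error.

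Against the spike-ins, gene26607 stayed above the controls, at -1.92, -1.83 and -1.85 log2 units in RNAi samples 1, 2 and 3 whereas the controls lay at -3.66, -2.76 and -2.54. Its RNAi minus control difference was 0.87 within Cy3 and 1.27 within Cy5. gene20426 lay at -3.06, -3.05 and -3.48 in the RNAi samples and -3.34, -3.35 and -2.50 in the controls, so that the groups overlapped, and its difference was 0.08 within Cy3 and -0.13 within Cy5. The rise of gene20426 is therefore a rise relative to the other genes of the array, with no settled sign against the spike-ins.

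Both other genes lay lower on either scale. PR-4 was at -1.31, -0.12 and 0.43 in the controls (replicates 1, 2 and 3), whereas the RNAi samples lay at -5.87, -5.94 and -6.12. The thaumatin-like gene was at -1.58, -1.52 and -1.09 in the controls and at -6.33, -6.35 and -6.36 in the RNAi samples. The differences were -5.88 in Cy3 and -5.51 in Cy5 for PR-4, and -4.82 and -5.02 for thaumatin, both beyond the shift of the median gene.

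**Figure D3:**
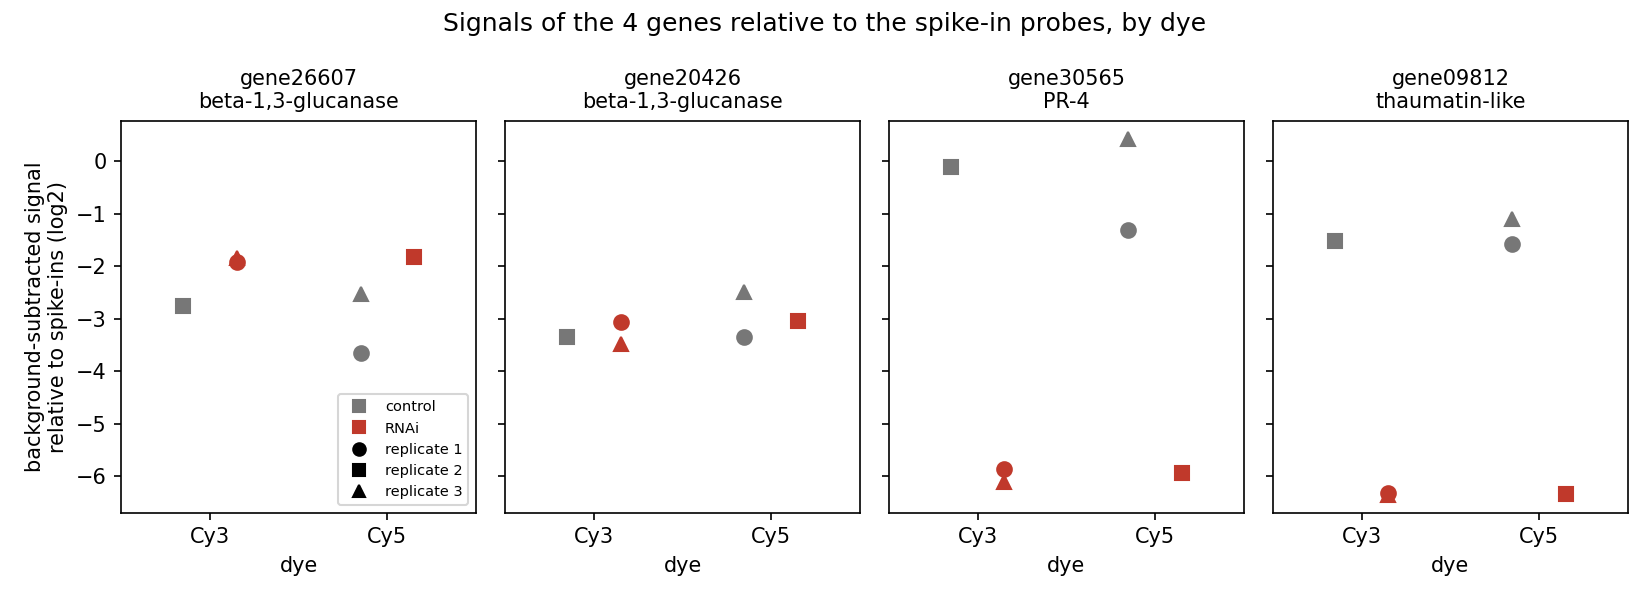
Background-subtracted signal of the 4 genes relative to the spike-in probes (log2) by dye, with control samples in grey and RNAi samples in red. RNAi samples lay above the controls for gene26607, among them for gene20426, and more than 4 log2 units below them in either dye for gene30565 and gene09812.

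The sizes of these changes, and for gene20426 the sign, moved with the scaling of the arrays. Of 15 alternatives that gave a test, the 4 genes kept their direction in all and stayed called in 14. The exception was centring each array on the median of all its gene spots in place of the loess, where the log2 ratios were 1.63 for gene26607 (adjusted p = 0.0565), 0.45 for gene20426 (adjusted p = 0.539), -4.31 for PR-4 and -3.48 for thaumatin (both adjusted p = 0.0512), and where no gene of the array was called although 9061 had an unadjusted p under 0.05. With the shift against the spike-ins applied, the values were 1.03, -0.22, -4.94 and -4.21 in the same order of genes. The differences taken directly within each dye averaged 1.07, -0.03, -5.69 and -4.92.

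**Figure D4:**
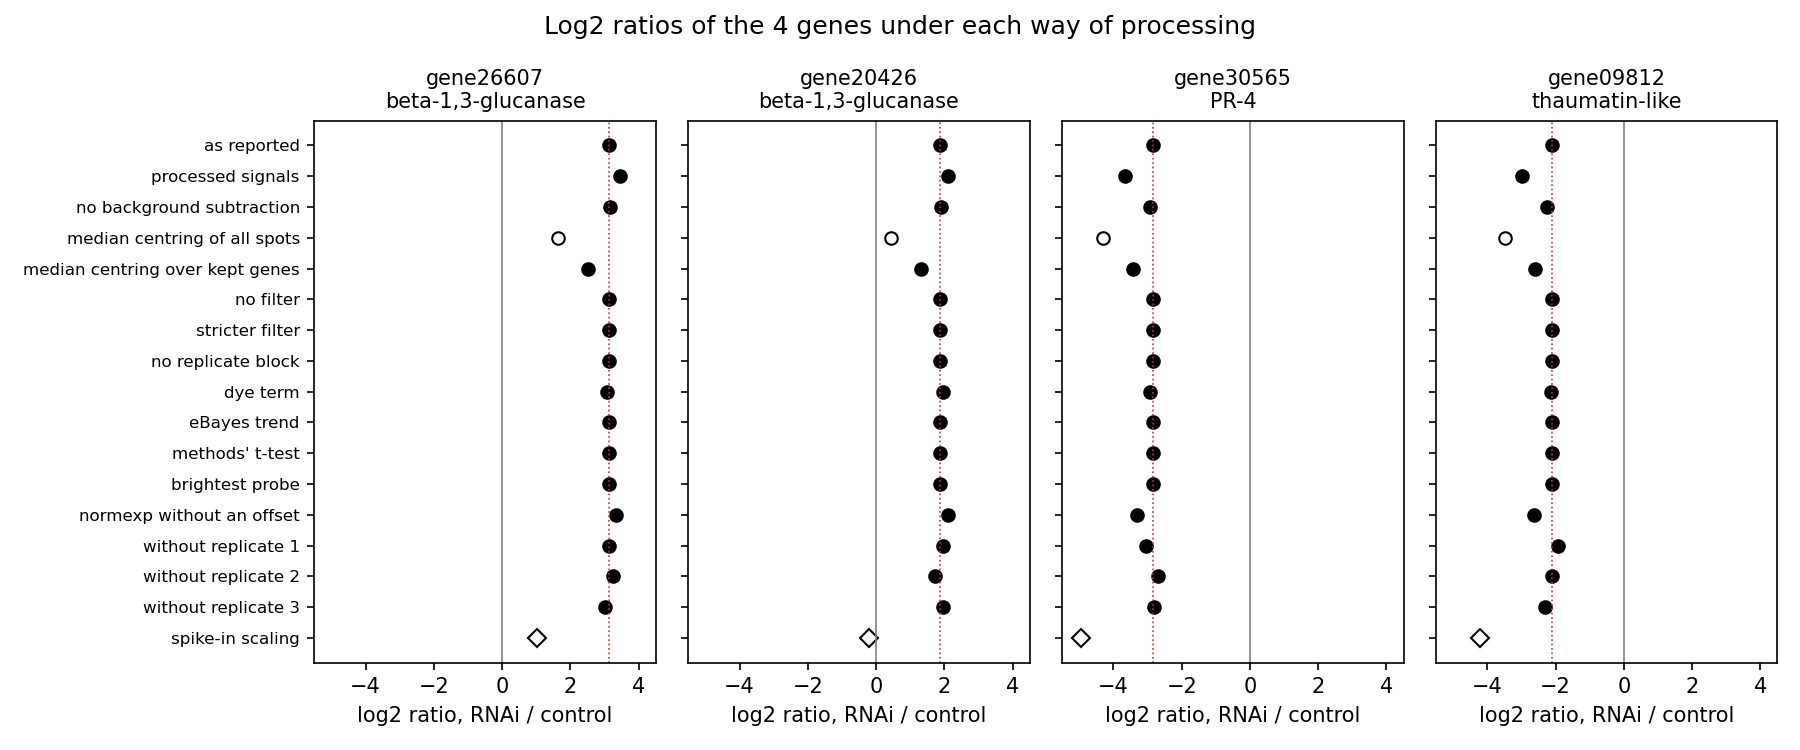
Log2 ratio (RNAi over control) of the 4 genes as reported (dotted line) and under each alternative, with filled circles for values called by an adjusted p under 0.05, open circles for values not called and diamonds for the spike-in scaling, which has no test. The values of gene26607, gene30565 and gene09812 stayed on 1 side of 0 throughout, and gene20426 crossed 0 under the spike-in scaling at -0.22.

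To set these genes among their relatives, PR genes were taken from a description table of the study in gene-number order, which was at hand only for the first gene numbers, and the list was thus not chosen for its response. It held 18 genes of 7 families, of which 11 could be tested. The adjusted p passed for 4 of these 11 (36.4%, beside 34.8% of all tested genes), all 4 higher in RNAi (beside 16.9% of all tested genes) and none lower, and 7 were not called. Their median log2 ratio was 0.28, beside -0.04 for all tested genes, and -1.81 against the spike-ins. The share called in either direction was thus close to that of all genes, and the list is described by these counts alone.

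Relative to the bulk of genes on the array, the beta-1,3-glucanases tested all had mean log2 ratios above 0, and not all of them were called. Against the spike-ins, gene26607 (1.03) and gene01212 (0.44) stayed above 0. There gene20426 (-0.22), gene00118 (-1.88) and gene00481 (-1.71) lay below 0. With gene26607 and gene20426 included, 6 were at hand and 5 were tested. Of these, 3 were higher (beside 16.9% of all tested genes), none was lower (beside 17.9%) and 2 were not called. All 3 called genes came from the study's selection on these samples, so their shared direction is no independent evidence. The 2 tested glucanases outside that selection, gene00118 and gene00481, were those not called. The third gene called was gene01212, which the study had also selected on these samples. Its log2 ratios were 1.60, 2.37 and 3.63, with a mean of 2.53 (SE 0.366, limma adjusted p = 0.00534). It varied more between arrays than gene26607 and gene20426, with an SD of 0.897 among its control samples (n = 3). The log2 ratios of gene00118 and gene00481 were 0.21 (adjusted p = 0.183) and 0.39 (adjusted p = 0.138), and gene00568 was not well above background on any array in either group. These small ratios moved with the processing, since gene00481 was called under 4 of the alternatives (1.69 with the scanner's processed signals, adjusted p = 0.00363) and gene00118 under 1 (1.31 with median centring over the kept genes, adjusted p = 0.000612). gene25805, a callose-binding protein of the type that holds callose at plasmodesmata in Arabidopsis, rose by 2.06 (SE 0.165, adjusted p = 0.00116), though it too comes from the study's selection on the same samples. It lay at -0.03 against the spike-ins.

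The thaumatin-like genes split. Beside gene09812, which fell, gene07623 had log2 ratios of 2.29, 2.84 and 2.80 and rose by 2.65 (SE 0.149, limma adjusted p = 0.000497), and was, like gene09812, in the study's own selection from the same samples. gene00110 gave -1.22, -0.28 and -0.34 on the 3 arrays with a mean of -0.61, which missed the threshold (adjusted p = 0.0699) but passed it at -1.42 with the processed signals (adjusted p = 0.0227), and gene01308 was too dim to test. Of 3 tested thaumatin-like genes, 1 was thus higher (beside 16.9% of all tested genes), 1 was lower (beside 17.9%) and 1 was not called. The 2 called genes both came from the study's selection, so the split is no independent evidence. The tested gene outside that selection, gene00110, was not called.

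Of the other PR families in gene-number order, 3 genes were called, all higher in RNAi, and 4 were not called. gene00687, a major latex-like protein related to the PR-10 family of small cytosolic ligand binders, rose by 3.53 (SE 0.209, adjusted p = 0.000529), the largest rise among the listed PR genes. gene00897, a defensin, which is a small cysteine-rich antifungal peptide, rose by 1.18 (SE 0.151, adjusted p = 0.00383), but its sign turned to -0.34 under median centring of all spots and it lay at -0.91 against the spike-ins. The lipid transfer protein gene00606, of the PR-14 family that carries lipids in the cell wall, rose by 2.06 (adjusted p = 0.000497). Against the spike-ins gene00606 lay at -0.03 and gene00687 at 1.43. None of the 3 class III peroxidases tested from this list and not its 1 tested germin-like gene was called.

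Beside the 4 genes themselves, the study's own selection held 8 other PR genes, of which 7 were higher and 1 was lower, with a median log2 ratio of 2.59, and gene01212 and gene00687 stood in both lists. Since they were selected on these samples, their direction and size are no independent evidence. The peroxidase gene15778, an enzyme that crosslinks cell walls, rose by 3.21 (SE 0.149, adjusted p = 0.000335). The 1 of these 8 that fell was a lipid transfer protein, gene30534, with log2 ratios of -3.69, -1.75 and -1.81 and a mean of -2.42 (SE 0.391, adjusted p = 0.00744), which was -1.78 without replicate 1. The other lipid transfer proteins selected, gene20871 and gene13871, gave 2.12 (adjusted p = 0.00119) and 2.83 (adjusted p = 0.00584), and gene13871 lost its call without replicate 2 (2.51, adjusted p = 0.0524) and was 3.52 without replicate 1. The methods' t-test left gene30534 and gene13871 uncalled (adjusted p = 0.0511 and 0.0611). Against the spike-ins gene20871 lay at 0.03, gene13871 at 0.74 and gene15778 at 1.11.

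**Figure D5:**
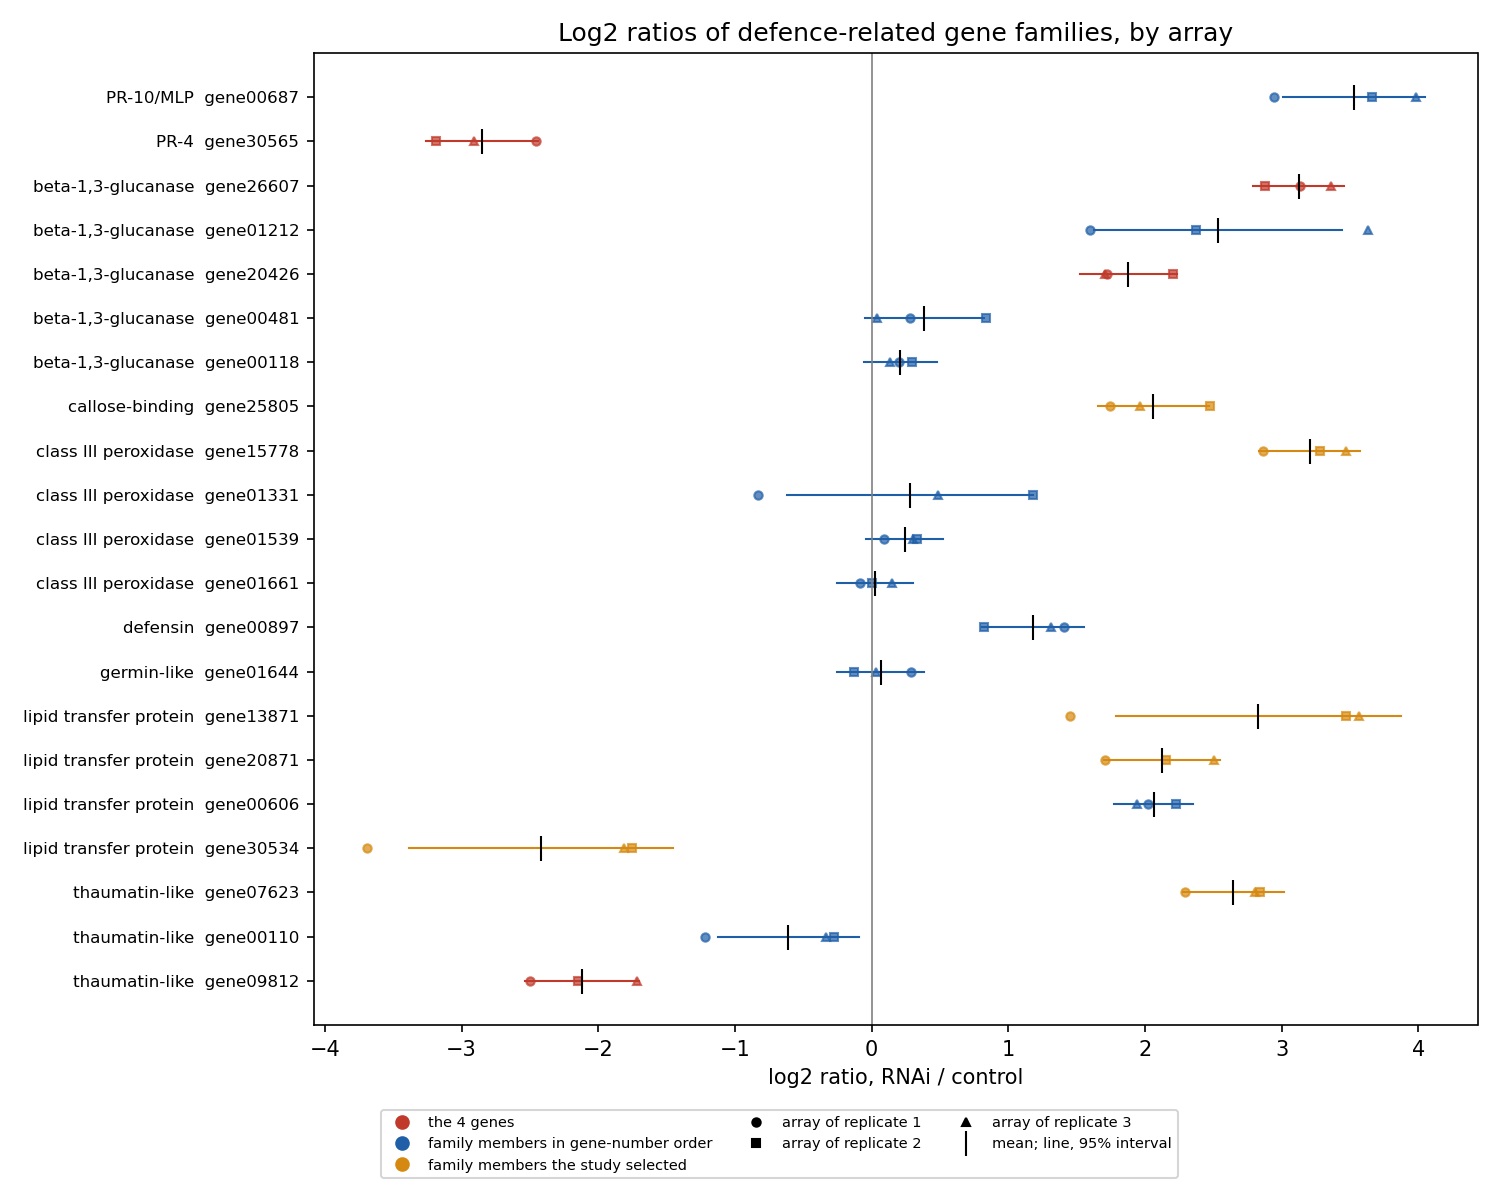
Log2 ratios (RNAi over control) of the 4 genes (red), of PR family members taken in gene-number order (blue, including gene01212 and gene00687, which the study had also selected) and of the others that the study selected (orange), with symbols for the 3 arrays, a tick for the mean and a line for the 95% interval. On this scale, relative to the bulk of genes on the array, the glucanases ran from 0.21 to 3.12 with none below 0. The thaumatin-like genes spread from -2.12 to 2.65.

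Receptors that sense pathogens, most of them with a nucleotide-binding site and leucine-rich repeats, were listed from the same table. Of 27 such genes 14 were tested, 7 of which were higher (50%) and none lower, beside 16.9% higher and 17.9% lower among all tested genes. Over the 14 tested receptors the log2 ratio had a median of 0.30, beside 0.28 for the PR genes tested from the same table, and ranged from -0.17 to 1.34. Against the spike-ins their median was -1.79, and every tested receptor lay below 0. The methods' t-test called 3 of them. The receptor with the smallest p, gene01091, rose by 1.34 (SE 0.169, limma adjusted p = 0.00364) and lay at -0.75 against the spike-ins.

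The described genes with the most similar ratios, by the root mean square difference of the 3 log2 ratios among 1379 candidates, came from other classes. The candidates included genes that the study had selected for their response on these samples, such as gene02631. Which genes and classes lay nearest is therefore a description and no independent evidence. Closest to gene26607 were a pectinesterase, which alters cell wall pectin (gene12965, 0.116), a histone (gene24659, 0.133) and a leucine-rich repeat receptor kinase (gene21196, 0.141). Closest to gene20426 were an ammonium transporter (gene13484, 0.119), a chlorophyll a-b binding protein (gene34432, 0.128) and a xyloglucan glycosyltransferase (gene02631, 0.139).

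Closest to PR-4 were an anthranilate synthase subunit of tryptophan synthesis (gene04128, 0.181), a vacuolar amino acid transporter (gene04460, 0.222) and a gene described as cellulose synthase H1 (gene23967, 0.243). Closest to the thaumatin-like gene were a short-chain dehydrogenase (gene18229, 0.162), an uncharacterized gene (gene19738, 0.258) and a MADS-box gene of the agamous-like class (gene24494, 0.290). Ratios this close were not rare, since 45, 252, 37 and 59 of all tested genes lay within 0.5 of gene26607, gene20426, gene30565 and gene09812, and 3 arrays give each pattern only 3 points.

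Other markers moved along with these genes. Of 10 ripening genes of the receptacle, all 10 were lower in RNAi, beside 17.9% of all tested genes, with a median log2 ratio of -2.41. These genes came from the study, which had chosen them on the same samples, so that their direction was fixed by that choice. Their summed normalized log2 signal was 18.13 to 18.27 in control and 15.37 to 16.17 in RNAi samples. Of 7 seed storage and oil body genes that mark achenes, 6 were higher (beside 16.9% of all tested genes, median 3.45), with summed signals of 13.31 to 13.81 in control and 17.12 to 17.28 in RNAi samples, and all 7 were well above background in all 6 samples even though the achenes had been removed. The exception was the oleosin gene01466, at 0.40 (adjusted p = 0.210), the only one of the 7 from outside the study's selection on the same samples. What part remaining achene tissue or the stage of the fruit had in the values of the 4 genes was not tested.

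On the arrays, the targeted transcript was measured by separate probes. The study also measured the FaPRE genes in RNAi receptacles by quantitative PCR, values that were not used here. The array's probe named FaPRE1 fell by 0.52 on the log2 scale (limma adjusted p = 0.0152), that of the gene model gene30478 assigned to FaPRE1 gave -0.33 (adjusted p = 0.184), and the relatives gene28320 and gene03986 gave -1.15 (adjusted p = 0.00162) and 0.74 (adjusted p = 0.00631). The log2 ratios of the 4 defence-related genes lay further from 0 than any of these, a difference that was not tested. The study had selected those 4 genes partly by size.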

How the data were processed

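Receptacle RNA of 3 RNAi and 3 control samples was hybridised by the authors on 3 two-colour arrays of 1 slide, read in 1 scan with Agilent Feature Extraction 10.7 (named in the submitters' processing notes). The deposited files hold median spot signals and local backgrounds as intensity values without correction, and processed intensity values that the authors' scanner software had background-subtracted and dye-normalized. A log10 ratio column, Cy5 over Cy3 per the file headers, stayed unused. Spot flags came from the same files.

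The analysis ran in R 4.3.3 and limma 3.58.1: normexp with an offset of 50, loess within each array with control and outlier spots at weight 0, ratios turned to RNAi over control, then spots and probes averaged. A probe was tested if 50% or more of its spots exceeded background clearly (the scanner's flag) on each of the 3 arrays for at least 1 group. The 3 ratios of a gene entered lmFit and eBayes, with Benjamini-Hochberg adjustment over all 21101 genes. Signals per sample were scaled by Aquantile. The array pairs the samples of a number, whose deviations correlated at 0.43, -0.04 and 0.18. The number of arrays limits the precision. The procedure was checked on simulated data.

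Genes named were the 4 genes, the FaPRE genes, all listed glucanases, thaumatin-like, defensin, PR-10 and callose-binding genes, the called gene with the smallest p of other families, and the 3 described genes nearest to each of the 4. The lipid transfer proteins gene20871 and gene13871, with gene30534, the oleosin gene01466 and the FaPRE1 probe were added after values were seen. Members and lists were chosen with earlier results of these data known. No identifier matched the gene table supplied for another strawberry assembly, and sequences are not printed.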

Additional observations from a re-analysis of the deposited data

How the results depend on the processing

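The alternatives were the scanner's processed signals, no background subtraction, median centring of all spots or of the kept genes, no filter or a stricter filter, no replicate block, a dye term, an intensity trend, the methods' t-test, the brightest probe, leaving out each replicate, other thresholds and spike-in scaling, plus normexp without an offset, which was chosen after seeing the data. Median centring of all spots took away the calls of the 4 genes, at 1.63 for gene26607, 0.45 for gene20426, -4.31 for gene30565 and -3.48 for gene09812. It left 0 genes called, higher or lower, 0 PR genes and 0 receptors (9061 genes at an unadjusted p under 0.05), it moved the median gene to -0.86, and it turned the defensin gene00897 to -0.34. The cause was not tested. Spike-in scaling gave 1.03 for gene26607, -0.22 for gene20426, which reversed, -4.94 for gene30565 and -4.21 for gene09812.

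Leaving out 1 replicate gave 3.00 to 3.25 for gene26607, 1.71 to 1.96 for gene20426, -3.05 to -2.68 for gene30565 and -2.32 to -1.93 for gene09812, each still called, and 3452 to 7117 genes called in place of 7349, with 4 to 5 PR genes and 4 to 5 receptors in place of 4 and 7. The lowest count of genes was that without replicate 3, and without replicate 2 it was 4300. Fewer arrays enter these fits. An adjusted p under 0.01 left 3412 genes and a size limit of 2 on the log2 scale left 414. The methods' t-test called 3 receptors and 4933 genes. Without the replicate block 7359 genes were called, and the block changed no call of the 4 genes, whose ratios stayed at 3.12, 1.88, -2.85 and -2.12. With the processed signals these were 3.45, 2.11, -3.65 and -2.98, and with median centring over the kept genes, where 54.8% of calls were higher in place of 48.5%, they were 2.51, 1.33, -3.43 and -2.60. Over the alternatives with a test, the adjusted p ran from 8.85e-11 to 0.0565 for gene26607, 0.000166 to 0.539 for gene20426, 3.36e-17 to 0.0512 for gene30565 and 2.53e-11 to 0.0512 for gene09812. Signal over background limits PR-4 and thaumatin most, whose RNAi spots were dim.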
